A study of Mus musculus with 24 samples.

Results

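Cytokines and chemokines are small secreted proteins through which immune cells signal to each other, and B cells release several of them besides antibody. CCL3, CCL4 and CCL5 are chemokines that attract T cells, monocytes and other leukocytes. IL-10 and TGF-beta restrain immune responses and IL-6, TNF and interferon gamma promote them, while the lymphotoxins made from Lta and Ltb keep up the architecture of spleen and lymph nodes. TET2 and TET3 are dioxygenases that oxidise methylated cytosine in DNA and take part in its demethylation.

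The 10 genes described here, Ccl3, Ccl4, Ccl5, Il10, Il6, Tnf, Lta, Ltb, Ifng and Tgfb1, were chosen by name as secreted products of B cells, out of 23234 genes in each expression table. RNA-seq had been done on B cells freshly isolated from the spleens of C57BL/6 mice. Tet2/Tet3-deficient CD93- B cells (DKO, n = 3) were set against control CD93- B cells (CTL, n = 3), and Tet2/Tet3-deficient CD93+ B cells (called Tet KO in the sample titles and DKO here, n = 3) against control CD93+ B cells (CTL, n = 3). CD93 is a surface protein of immature and transitional B cells that is also found on plasma cells. The alleles, the Cre driver, the age and the sex of the mice are not given in the sources used here, nor whether the libraries of a group came from separate mice, so p-values measure the spread between libraries. Another 12 of the 24 labelled samples, from further CD93- subsets, were not analysed here.

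Values are FPKM, sequenced fragments divided by transcript length and library size, and can therefore be compared between genes per length. Each fold change is a difference of group means on the log2(FPKM + 1) scale, DKO minus CTL, which understates the change of weakly expressed genes. A gene was tested where at least 3 libraries of its table had 1 FPKM or more, and it was called at an adjusted p under 0.05 (limma, Benjamini-Hochberg over all tested genes). Of the 10 genes, 8 were tested in CD93- cells, among 10960, and 9 in CD93+ cells, among 11250. Il6 was not tested in either table and Il10 was tested only in CD93+ cells.

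The libraries did not share one scale, which bears on every result. CTL replicate 1 had an upper quartile of 18.7 FPKM over the tested genes of CD93- cells, against 23.0 to 26.2 in the other 5 libraries, and DKO replicate 3 had 15.4 in CD93+ cells, against 25.8 to 30.1 in the others. With the deposited scaling, the median change over all tested genes was 0.11 in CD93- and -0.22 in CD93+ cells. When libraries were instead brought to the same upper quartile, called rescaling here, it was -0.08 and -0.01, so both scalings are given where they lead to different calls. In CD93+ cells the fit of the deposited values gave genes of like expression a common spread. The rescaled p-values, which use each gene's own libraries, are given beside it for the members called there. For some other genes, such as Cxcl10 and Traf1, the rescaled p-value over all libraries is not given. B cell markers, 8 genes including Cd79a and Ms4a1, summed to 3680 to 3863 FPKM in DKO and 3414 to 4247 in CTL CD93- libraries, and to 1746 to 3637 in DKO and 3735 to 4959 in CTL CD93+ libraries. Rescaled sums were 3468 to 3504 in DKO and 4093 to 4308 in CTL CD93- libraries. In CD93+ libraries they were 2915 to 3265 in DKO and 3720 to 4240 in CTL. Of the 8 markers, 1 was called lower in each population on the deposited scaling (2.79% of all genes in CD93- and 1.54% in CD93+ cells). After rescaling 4 were called lower in CD93- and 5 in CD93+ cells, where 23.8% and 9.34% of all genes were. Tet2 and Tet3, whose gene-level FPKM includes exons outside any deleted part and checks no label, had changes of 0.22 and -0.20 in CD93- and of -0.29 and -0.87 in CD93+ cells, none called on the deposited scaling, and Tet3 was called lower in both after rescaling (-0.41 and -0.66). Xist and Ddx3y marked all 6 CD93- libraries as male, while in CD93+ cells the DKO libraries and CTL replicate 3 read as female and CTL replicates 1 and 2 as male. Fewer cells of a type and less RNA per cell cannot be told apart in these bulk libraries.

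The chemokine genes Ccl3 and Ccl4 were higher in Tet2/Tet3-deficient cells of both sorted populations. In CD93- cells 2 of the 8 tested members were called higher in DKO, both of them these chemokines, and 1 lower, Lta, where 18.7% of all tested genes were called higher and 2.79% lower. In CD93+ cells 5 of the 9 tested members were called higher (Ccl3, Ccl4, Ccl5, Il10 and Ifng) and 0 lower (0 also at an unadjusted p under 0.05 in limma), where 1.67% of all tested genes were called higher and 1.54% lower. After rescaling, the members' counts were 2 higher and 4 lower in CD93- cells, against 17.1% and 23.8% of all genes, and 5 higher and 1 lower in CD93+ cells, against 11.4% and 9.34%. In CD93+ cells, Ccl3, Ccl4 and Il10 passed the filter on low values only through the DKO libraries, so a difference was built into their being tested. Their count carries no weight for that reason. Among the tested members, without regard to p-values, 3 lay above CTL in every DKO CD93- library and 1 below, where 31.5% and 7.43% of all tested genes did so, and 4 and 1 in CD93+ libraries, where 2.94% and 19.0% did. On rescaled values 2 members lay above and 4 below in CD93- cells, against 21.4% and 33.3% of genes, and 5 above and 1 below in CD93+ cells, against 20.9% and 22.0%. The CD93+ members above CTL include Ccl3, Ccl4 and Il10 on both scalings. The same filter bears on them, so these CD93+ counts carry no weight either. The difference between the populations was not tested, because their tables had been scaled separately.

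**Figure D1:**
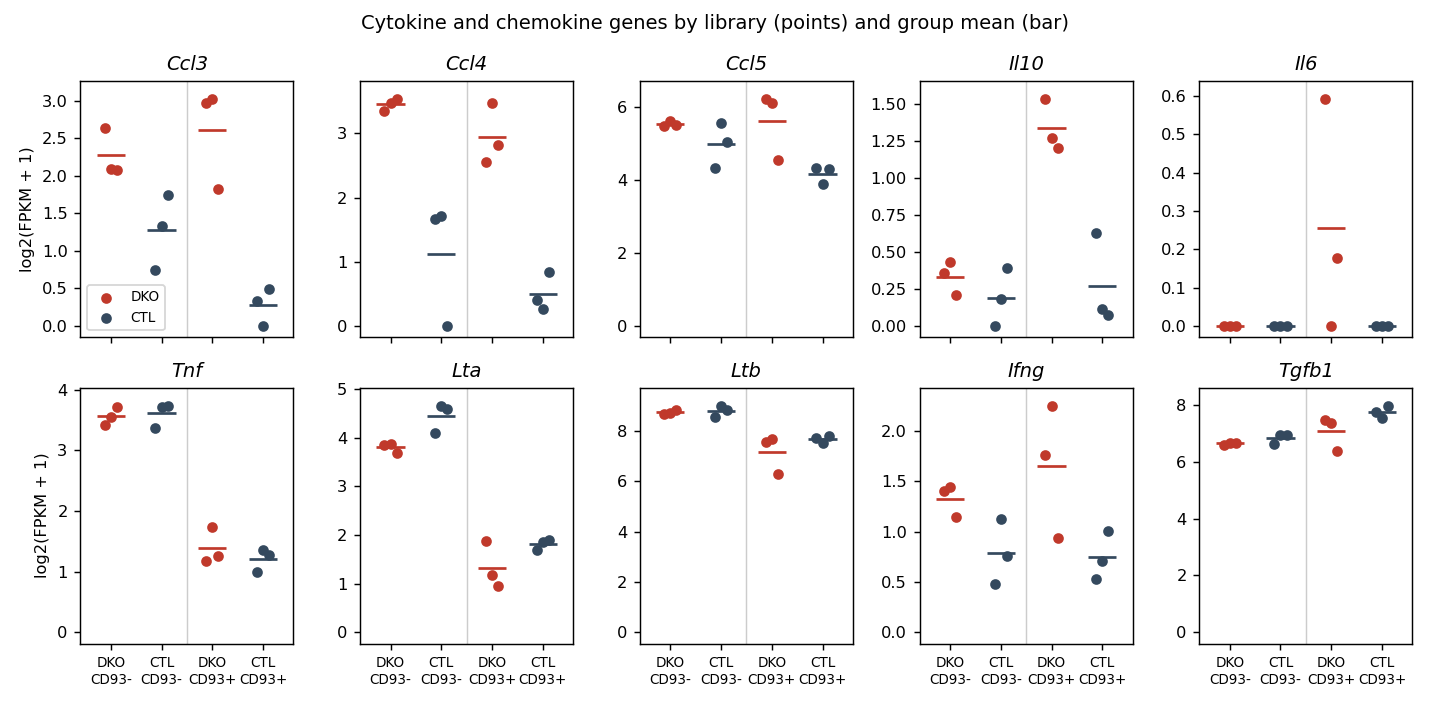
Level of each of the 10 genes as log2(FPKM + 1) on the vertical axis, in DKO and CTL libraries of CD93- and then CD93+ B cells along the horizontal axis. Points are libraries (n = 3 per group), bars are group means, and each panel has its own vertical scale. Ccl4 is higher in every DKO library than in any CTL library of the same population, and Il6 is listed at 0 in 10 of the 12 libraries.

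Ccl4, which encodes the chemokine also called MIP-1 beta, had 9.20, 10.1 and 10.6 FPKM in DKO CD93- libraries, against 2.17, 2.27 and 0 FPKM in CTL CD93- libraries. In CD93+ cells it had 4.91, 10.1 and 6.04 FPKM in DKO libraries, against 0.329, 0.201 and 0.783 FPKM in CTL libraries. The groups did not overlap in either population, and every CTL CD93+ library lay under the 1 FPKM used as the filter. The log2 change was 2.33 ± 0.35 (SE) in CD93- cells (adjusted p = 0.000536, and 0.0102 after rescaling). In CD93+ cells it was 2.45 ± 0.27 (adjusted p = 2.63e-16, and 0.00350 after rescaling, with a change of 2.60).

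Ccl3, whose product MIP-1 alpha is closely related, had 5.24, 3.28 and 3.24 FPKM in DKO CD93- libraries, against 0.675, 1.52 and 2.35 FPKM in CTL CD93- libraries. The CD93+ values were 6.87, 7.13 and 2.55 FPKM in DKO libraries, against 0.256, 0 and 0.406 FPKM in CTL libraries. The groups were again apart in both populations, with the narrowest gap between DKO replicate 3 and CTL replicate 3 of CD93- cells. The log2 change of Ccl3 was 1.0 ± 0.24 (adjusted p = 0.0105) in CD93- cells and 2.33 ± 0.26 (adjusted p = 1.15e-16, and 0.000895 after rescaling) in CD93+ cells. The CD93- call held after rescaling (0.86, adjusted p = 0.0338) but, on the rescaled values, was lost when any of DKO replicates 1, 2 and 3 or CTL replicates 1 and 2 was left out (adjusted p 0.0547 to 0.0955).

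Ccl3 and Ccl4 are next to each other on mouse chromosome 11 in the GRCm38 gene order. The 250 bases before the start of Ccl3 are printed because it is the gene of this pair with a sequence at hand and TET enzymes act on methylated CG dinucleotides, which are in capitals. They span chr11:83649379-83649628 on the minus strand of GRCm38.p6 (RefSeq) and are written 5′ to 3′ along the gene.
Ccl3: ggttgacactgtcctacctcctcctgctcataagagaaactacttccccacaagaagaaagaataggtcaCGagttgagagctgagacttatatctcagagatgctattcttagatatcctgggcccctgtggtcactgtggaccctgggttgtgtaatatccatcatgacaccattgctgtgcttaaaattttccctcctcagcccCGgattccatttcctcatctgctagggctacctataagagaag
This stretch holds 2 CG dinucleotides, against a median of 6 over 32851 mouse promoters of the same length. DNA methylation was not measured in these libraries.

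Ccl5, the chemokine RANTES, which T cells and NK cells also make in quantity, was the most abundant of the chemokines. It had 73.9, 68.1 and 22.5 FPKM in DKO CD93+ libraries, against 19.2, 14.0 and 18.8 FPKM in CTL CD93+ libraries, so the groups did not overlap and DKO replicate 3 lay nearest to CTL. The log2 change was 1.45 ± 0.38 (adjusted p = 0.00759) and 1.68 ± 0.21 after rescaling (adjusted p = 0.00408). On the deposited scaling the call was lost without DKO replicate 1 or 2 or without any of the 3 CTL libraries (adjusted p 0.0885 to 0.304) and with sex as a covariate (adjusted p = 0.947). In CD93- cells the values were 43.8, 48.6 and 44.7 FPKM in DKO libraries, against 19.3, 46.6 and 32.1 FPKM in CTL libraries. There the CTL libraries were spread widely and CTL replicate 2 lay among the DKO values. The change of 0.56 ± 0.24 was not called (adjusted p = 0.120), and it was called without CTL replicate 2 (0.85, adjusted p = 0.00726).

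Ifng encodes interferon gamma, the main activator of macrophages, and is another gene with high expression in T and NK cells. It was close to the detection filter everywhere. In CD93+ cells it had 2.38, 3.76 and 0.915 FPKM in DKO libraries, against 0.448, 0.639 and 1.01 FPKM in CTL libraries. DKO replicate 3 lay below CTL replicate 3, so the groups overlapped, although the log2 change of 0.90 ± 0.25 was called (adjusted p = 0.0118, and 0.0293 after rescaling). The call was lost without DKO replicate 2, CTL replicate 1 or CTL replicate 2 (adjusted p 0.182 to 0.432) and with sex as a covariate (adjusted p = 0.948). It was also lost without a trend (adjusted p = 0.499), under quantile normalization (0.0582) and, on rescaled values, without DKO replicate 1 or 2 or CTL replicate 1 or 2 (0.0625 to 0.0953). CD93- values were 1.64, 1.73 and 1.20 FPKM in DKO libraries, against 0.395, 1.18 and 0.688 FPKM in CTL libraries. These groups did not overlap, by a narrow margin, and the change of 0.54 ± 0.19 was not called (adjusted p = 0.0611). Without CTL replicate 2 it was (0.71, adjusted p = 0.0202).

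In CD93+ cells Nkg7 and Gzmb, genes of T and NK cells, moved beside Ccl5 and Ifng. Most other T and NK cell markers were not called there on the deposited scaling. Nkg7, a gene of cytotoxic granules, had 38.0, 30.5 and 11.9 FPKM in DKO CD93+ libraries, against 8.69, 8.42 and 12.6 FPKM in CTL CD93+ libraries, and Gzmb, which encodes granzyme B, had 6.64, 10.9 and 1.37 FPKM against 0.371, 0.718 and 0.737 FPKM. Both were called higher in DKO on either scaling, although Gzmb passed the filter only through the DKO libraries there. Both were high in DKO replicates 1 and 2 and low in DKO replicate 3, as Ccl5 was. The B cell marker sum was also lowest in DKO replicate 3, at 1746 FPKM against 3418 and 3637 in DKO replicates 1 and 2. That library had the low upper quartile. The summed level of the 10 NK cell markers was 28.4 to 85.2 FPKM in DKO and 20.3 to 41.0 in CTL CD93+ libraries, and 47.4 to 76.5 in DKO and 20.2 to 35.0 in CTL after rescaling. With the deposited scaling 2 of the 8 tested NK markers were called higher, and 4 after rescaling, where 1.67% and 11.4% of all tested genes were. Ncr1, which defines NK cells, had 0, 0.781 and 0.684 FPKM in DKO CD93+ libraries, against 1.75, 0.909 and 1.47 FPKM in CTL CD93+ libraries. The 12 T cell markers summed to 115.9 to 318 FPKM in DKO and 233 to 275 in CTL CD93+ libraries, with 1 called higher, Cd28. In CD93- cells the NK sum was 85.1 to 99.1 FPKM in DKO and 51.9 to 106 in CTL libraries, with Gzmb the 1 marker of 10 called, and the T sum was 150.3 to 154 in DKO and 120.4 to 162 in CTL libraries, with 7 of 12 markers called higher. Of all tested genes 18.7% were called higher there. After rescaling the T sum was 139.4 to 142 in DKO and 152 to 163 in CTL CD93- libraries, lower in every DKO library. Then 6 T markers were called higher and 1 lower, against 17.1% and 23.8% of all genes. No marker of either list was at 0 in all libraries of a table. Among the CTL CD93- libraries, replicate 1 was lowest and replicate 2 highest in Ccl5, in Nkg7 (8.44, 21.9 and 13.9 FPKM in replicates 1, 2 and 3) and in Gzma (17.0, 34.8 and 25.6 FPKM). The B cell marker sum had the same order, at 3414, 4247 and 3981 FPKM in these replicates. The part of T and NK cell RNA in the results on Ccl5 and Ifng was not tested.

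**Figure D2:**
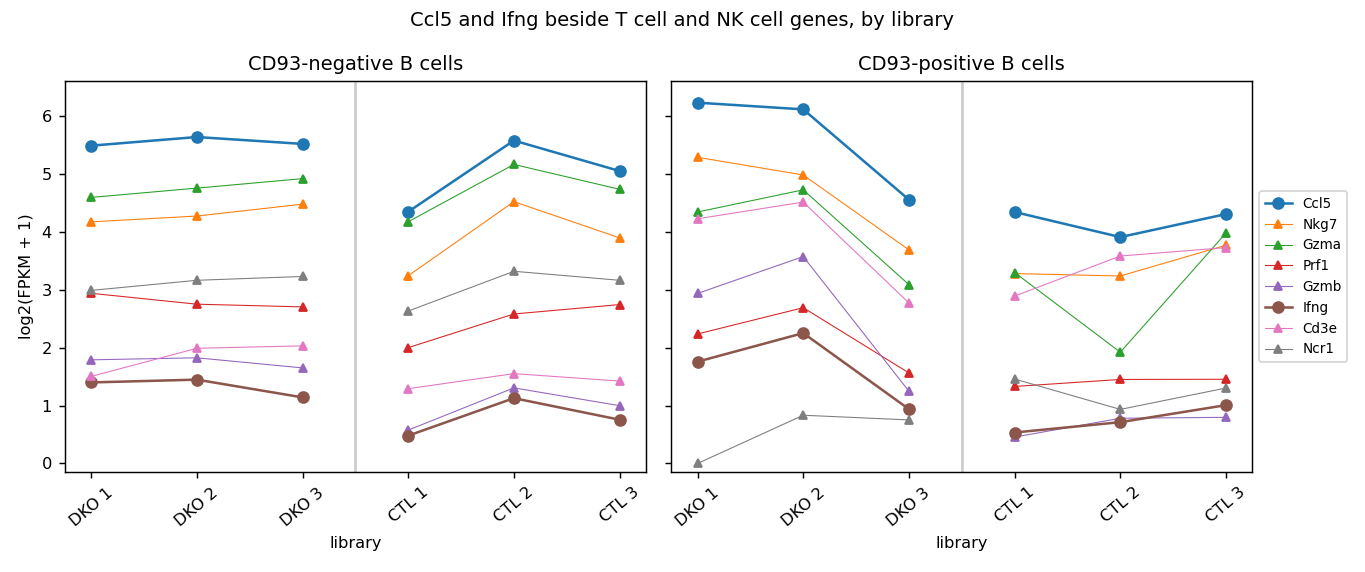
Ccl5 and Ifng (circles) beside genes of T and NK cells (triangles), as log2(FPKM + 1) on the vertical axis, in each DKO and then CTL library of CD93- (left) and CD93+ (right) B cells. Thin lines join the points of a gene within a group to help the eye and stand for no order. Ccl5 and Nkg7 are both lowest in CTL replicate 1 of CD93- cells and high in DKO replicates 1 and 2 of CD93+ cells, while Ncr1 is at or under 0.781 FPKM in DKO CD93+ libraries.

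Il10, the cytokine by which regulatory B cells are defined, was weakly expressed. It had 1.89, 1.41 and 1.30 FPKM in DKO CD93+ libraries, against 0.544, 0.0831 and 0.0540 FPKM in CTL CD93+ libraries. All DKO libraries lay above all CTL libraries, which were under 1 FPKM. The log2 change was 1.06 ± 0.23 (adjusted p = 0.000210) and 1.16 ± 0.21 after rescaling (adjusted p = 0.0142). The call was lost in the fits without a trend (adjusted p = 0.248), without a filter (0.161) and with sample weights (0.0616). On rescaled values it was lost without CTL replicate 2 (adjusted p = 0.0589) and with sex as a covariate (0.0650). In CD93- cells Il10 had 0.279, 0.349 and 0.157 FPKM in DKO libraries, against 0, 0.135 and 0.313 FPKM in CTL libraries, and it did not reach the level needed for a test. The groups overlapped there.

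Il6, a cytokine that supports germinal centre and plasma cell responses, was listed at 0 in all 6 CD93- libraries. In CD93+ cells it had 0.507, 0 and 0.130 FPKM in DKO libraries and was listed at 0 in the 3 CTL libraries. With the depth of the libraries unknown, these values do not say how low its level was.

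Markers of plasma cells, which secrete antibody and can carry CD93, moved with Ccl3 and Ccl4 in both populations. They moved with Il10 in CD93+ cells only, as Il10 was not tested in CD93- cells and its groups overlapped there. Their 7 measured genes summed to 878 to 1520 FPKM in DKO CD93+ libraries and 105 to 151 in CTL CD93+ libraries, and to 335 to 369 in DKO and 61.3 to 91.7 in CTL CD93- libraries. Of 6 tested, 4 were called higher in CD93+ and 5 in CD93- cells, where 1.67% and 18.7% of all tested genes were. After rescaling 5 were called higher in each population, where 11.4% and 17.1% of all genes were. Prdm1, among those tested, passed the filter only through the DKO libraries in both populations. Dendritic cell markers, 8 genes, summed to 63.1 to 104.8 FPKM in DKO and 45.1 to 61.4 in CTL CD93+ libraries, and to 123 to 138 in DKO and 80.3 to 110.3 in CTL CD93- libraries. Macrophage markers, 11 measured genes, summed to 119.5 to 307 FPKM in DKO and 174 to 300.2 in CTL CD93+ libraries, and neutrophil markers, 8 measured genes, to 447 to 1402 in DKO and 1601 to 2232 in CTL. Red cell genes summed to 3318 to 15710 FPKM in DKO and 15090 to 64410 in CTL CD93+ libraries, and the other way in CD93- cells, to 171 to 199 in DKO and 43.1 to 60.6 in CTL libraries. In CD93- cells 4 of 6 tested red cell genes were called higher, against 18.7% of all tested genes, and 2 after rescaling, against 17.1%. In CD93+ cells 7 of 9 tested red cell genes were called lower, and 0 after rescaling, against 1.54% and 9.34% of all genes. Of the 8 tested neutrophil genes 1 was called lower in CD93+ cells, and 5 after rescaling, against the same shares. The part of these cells in the results was not tested.

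Tnf, Lta and Ltb, the 3 genes of the TNF and lymphotoxin cluster, lie side by side on mouse chromosome 17. LTA forms a soluble trimer that binds the TNF receptors, and it joins LTB in the surface trimer that binds the lymphotoxin beta receptor. Lta was the one of them with a called change on both scalings. It had 13.5, 13.5 and 11.9 FPKM in DKO CD93- libraries, against 16.1, 24.2 and 23.1 FPKM in CTL CD93- libraries, which did not overlap with them. It fell by 0.65 on the log2 scale (SE 0.16, adjusted p = 0.0121), and by 0.86 after rescaling (SE 0.09, adjusted p = 0.000552). Without DKO replicate 3 the adjusted p was 0.0508 on the deposited scaling. In CD93+ cells Lta was low, with 2.66, 1.25 and 0.925 FPKM in DKO libraries, against 2.25, 2.60 and 2.73 FPKM in CTL libraries. DKO replicate 1 lay among the CTL libraries there, and the change of -0.49 was not called (adjusted p = 0.475, and 0.231 after rescaling).

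Ltb, per length the most abundant of the 10 genes in CD93- cells, had 409, 418 and 448 FPKM in DKO CD93- libraries, against 374, 511 and 459 FPKM in CTL CD93- libraries. The groups overlapped and the change was -0.06 (adjusted p = 0.816). After rescaling the values were 385, 389 and 405 in DKO and 471, 497 and 471 in CTL libraries, which did not overlap, with a change of -0.29 (SE 0.05, adjusted p = 0.00395). In CD93+ cells Ltb had 186, 205 and 76.2 FPKM in DKO libraries, against 211, 181 and 224 FPKM in CTL libraries. The low value was DKO replicate 3, the library with the low upper quartile, and no change was called on either scaling (adjusted p = 0.678, and 0.187 after rescaling).

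Tnf, an early inflammatory signal, had 9.72, 10.7 and 12.1 FPKM in DKO CD93- libraries, against 9.38, 12.2 and 12.3 FPKM in CTL CD93- libraries. The groups overlapped, the change was -0.05 (adjusted p = 0.862), and after rescaling it was -0.25 (SE 0.08, adjusted p = 0.0364). The rescaled call was lost without any single library other than DKO replicate 3 (adjusted p at least 0.0606), and quantile normalization gave no call (0.0808). In CD93+ cells it had 1.27, 2.32 and 1.38 FPKM in DKO libraries, against 0.989, 1.55 and 1.43 FPKM in CTL libraries. These overlapped and were not called apart (0.18, adjusted p = 0.816).

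The 250 bases before the starts of Ltb, Tnf and Lta are printed for comparison with Ccl3, as neighbours of which Lta and Ltb were lower in DKO CD93- cells on rescaled values, with a call for Tnf that depended on single libraries. They span chr17:35194257-35194506 (plus strand), chr17:35202008-35202257 (minus strand) and chr17:35205352-35205601 (minus strand) of GRCm38.p6 (RefSeq), each 5′ to 3′ along its gene with CG dinucleotides in capitals.
Ltb: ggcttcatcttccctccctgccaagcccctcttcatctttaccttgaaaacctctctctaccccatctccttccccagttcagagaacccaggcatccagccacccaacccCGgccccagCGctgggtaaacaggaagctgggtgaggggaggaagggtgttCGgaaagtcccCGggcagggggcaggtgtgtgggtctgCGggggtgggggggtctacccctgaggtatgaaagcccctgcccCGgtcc
Tnf: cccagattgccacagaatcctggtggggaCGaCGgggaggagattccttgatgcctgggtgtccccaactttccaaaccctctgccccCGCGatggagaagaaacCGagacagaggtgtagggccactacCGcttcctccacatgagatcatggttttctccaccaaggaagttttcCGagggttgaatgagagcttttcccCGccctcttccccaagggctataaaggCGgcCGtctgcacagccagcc
Lta: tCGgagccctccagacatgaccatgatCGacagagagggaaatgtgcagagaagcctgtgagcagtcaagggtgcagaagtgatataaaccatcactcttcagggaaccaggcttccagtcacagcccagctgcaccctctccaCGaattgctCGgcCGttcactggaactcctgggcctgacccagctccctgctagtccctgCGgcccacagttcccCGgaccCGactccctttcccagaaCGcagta
They hold 6, 10 and 9 CG dinucleotides in this order. The interferon-activated sequence TTCNNNGAA, which reads the same on both strands and to which STAT proteins bind, occurs 2 times in the Lta stretch and 1 time each in those of Ltb and Ifng, and 7.02% of all promoters hold it. The kappaB consensus, searched on both strands, occurs 1 time in the Ltb stretch, 1 time in that of Tgfb1 and 1 time in that of Il6, and 7.25% of promoters hold it. The AP-1 site TGANTCA occurs 1 time, before Il6, and is held by 6.75% of promoters, while the cyclic AMP response element TGACGTCA, held by 1.55%, occurs in none of those at hand. None of these matches overlap each other, and no match was found before Ccl3 and Tnf. Promoters of 7 of the 10 genes were at hand.

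Tgfb1, which encodes a latent cytokine that B cells release and that needs activation outside the cell, was the most abundant member in CTL CD93+ cells together with Ltb. It had 174, 163 and 82.2 FPKM in DKO CD93+ libraries, against 215, 185 and 249 FPKM in CTL CD93+ libraries. All DKO libraries lay below all CTL libraries, DKO replicate 3 farthest. The change of -0.69 ± 0.43 was not called on the deposited scaling (adjusted p = 0.547), and after rescaling it was -0.44 ± 0.08 (adjusted p = 0.0121). In CD93- cells Tgfb1 had 95.7, 100.3 and 101 FPKM in DKO libraries, against 97.6, 121 and 120.4 FPKM in CTL libraries, overlapping through CTL replicate 1. The change was -0.18 (adjusted p = 0.377) and -0.41 ± 0.04 after rescaling (adjusted p = 0.000467), and without CTL replicate 1 it was called on the deposited scaling too (-0.29, adjusted p = 0.0149).

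**Figure D3:**
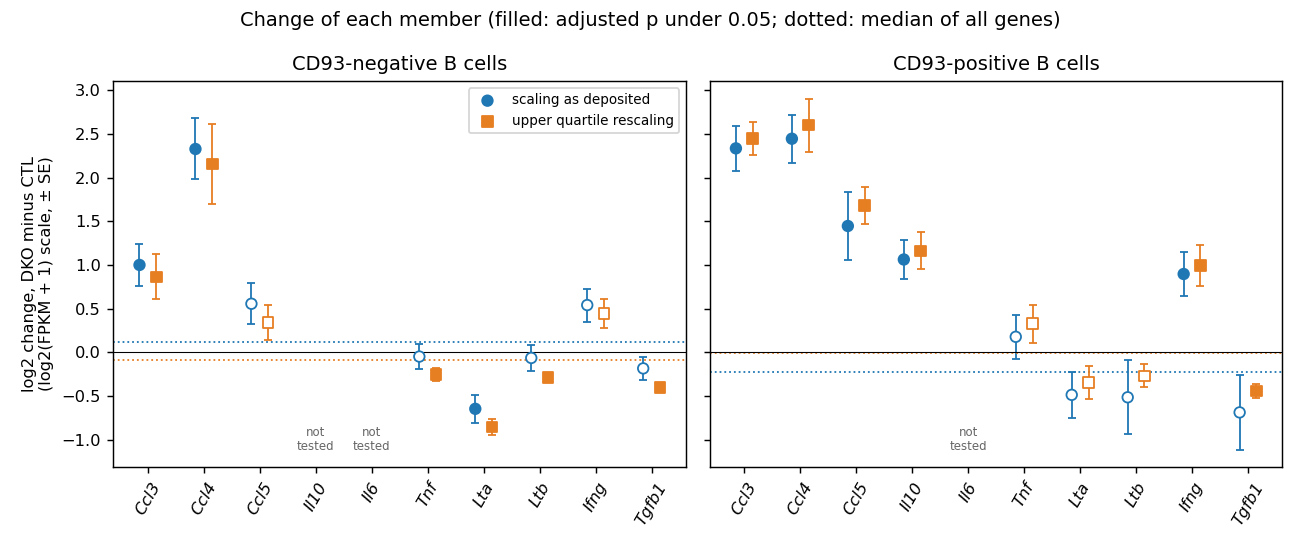
Log2 change (DKO minus CTL, on log2(FPKM + 1)) on the vertical axis for each gene along the horizontal axis, in CD93- (left) and CD93+ (right) B cells, with the deposited scaling (circles) and after upper quartile rescaling (squares). Bars are standard errors, filled points are called changes, and dotted lines are the medians of all tested genes. Ccl3 and Ccl4 lie above 0 in all 4 fits, Lta lies below 0 in all 4, and Ltb, Tnf and Tgfb1 are called lower in CD93- cells only after rescaling.

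Ordered by mean level, Ltb stood highest, at 425 ± 20.5 FPKM in DKO and 448 ± 69.4 FPKM in CTL CD93- cells (SD, n = 3), with Tgfb1 next at 99.0 ± 2.82 in DKO and 113 ± 13.5 in CTL. Ccl5 followed at 45.7 ± 2.58 FPKM in DKO CD93- cells and 32.7 ± 13.7 FPKM in CTL. The ranges of Lta and Tnf, and of Tnf and Ccl4, overlapped among the DKO CD93- libraries. In CTL CD93- libraries those of Ccl5 and Lta overlapped, as did those of Ccl3 and Ccl4, of Ccl4 and Ifng, and of Il10 and Il6. Among DKO CD93+ libraries the ranges of Ltb and Tgfb1 overlapped, and so did each neighbouring pair in the order Ccl4, Ccl3, Ifng, Tnf, Lta and Il10. Among CTL CD93+ libraries Tgfb1, at 216 ± 32.1 FPKM, and Ltb, at 205 ± 22.0 FPKM, overlapped, Ccl5 (17.3 ± 2.90) and Lta (2.52 ± 0.250) stood apart, and neighbours overlapped in the order Tnf, Ifng, Ccl4, Il10, Ccl3 and Il6. Control libraries of the 2 tables can only be set side by side. Lta was at 2.25 to 2.73 FPKM in CTL CD93+ and 16.1 to 24.2 in CTL CD93- libraries, and Tnf at 0.989 to 1.55 and 9.38 to 12.3 FPKM. Tgfb1 was at 185 to 249 FPKM in CTL CD93+ and 97.6 to 121 in CTL CD93- libraries. These differences were not tested.

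Among the receptors of the 10 proteins, the chemokine receptor Ccr1 was lower and Tnfrsf14 was higher in DKO CD93- cells. There 11 of the 15 receptor genes listed were tested, 2 were called higher and 1 lower, where 18.7% and 2.79% of all genes were, and 2 and 4 after rescaling, where 17.1% and 23.8% were. The higher calls are near the share over all genes. The list had a median change of -0.02 against 0.11 over all genes. Tnfrsf14, which encodes HVEM, a receptor of lymphotoxin alpha and LIGHT, rose by 0.75 on the log2 scale, with 33.2, 34.6 and 35.8 FPKM in DKO and 17.5, 23.0 and 20.0 FPKM in CTL CD93- libraries (adjusted p at most 0.0109 over all alternatives). Il6ra, a subunit of the IL-6 receptor, had a change of 0.47, a call that was lost without any single library other than CTL replicate 2 (adjusted p 0.0653 to 0.134). Ccr1, a receptor of CCL3 and CCL5, fell by 0.61, with 2.93 ± 0.188 FPKM in DKO cells, against 5.08 ± 1.16 FPKM in CTL cells (SD, n = 3). The Ccr1 call was lost without DKO replicate 2, CTL replicate 1 or CTL replicate 2 (adjusted p 0.0524 to 0.0557), but on rescaled values it was called (-0.79). In CD93+ cells 0 of 13 tested receptor genes were called by limma on the deposited scaling, 1 had an unadjusted p under 0.05 (Ccr1), and 5 were called after rescaling, where 11.4% of all genes were higher and 9.34% lower. Of these 5, 1 was higher, Tnfrsf1b, a TNF receptor (0.56, adjusted p = 0.0402), and 4 were lower, Ccr1, Il10ra, Ifngr2 and Tgfbr2, with changes of -0.47, -0.44, -0.46 and -0.43. Tgfbr2, a subunit of the TGF-beta receptor, was at 33.2, 33.2 and 28.1 rescaled FPKM in DKO and 39.1, 45.0 and 43.9 in CTL CD93+ libraries.

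**Figure D4:**
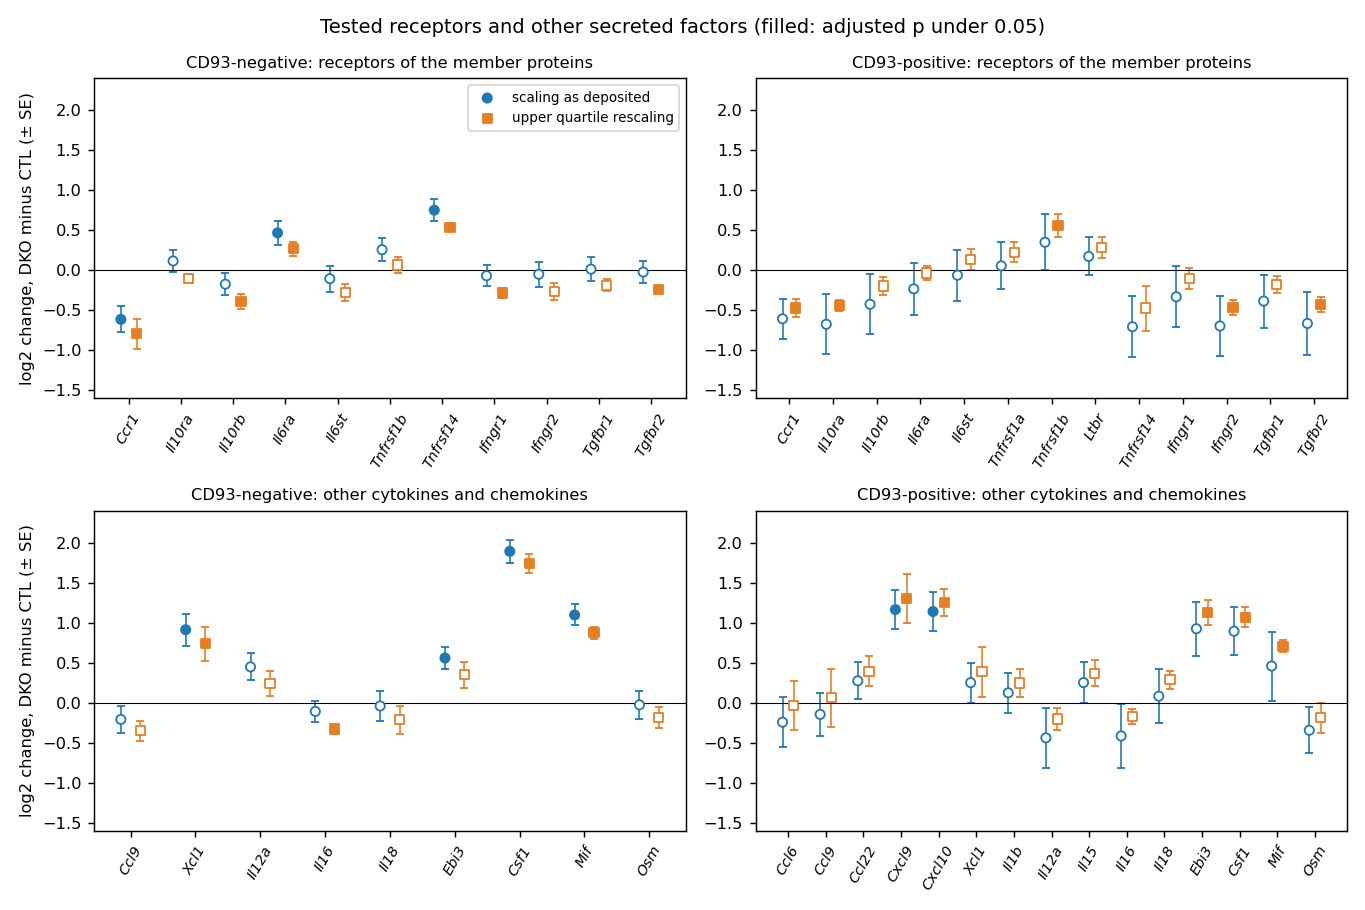
Log2 change (DKO minus CTL, on log2(FPKM + 1)) on the vertical axis for the tested receptors (top) and other cytokines and chemokines (bottom), in CD93- (left) and CD93+ (right) B cells. Circles are the deposited scaling, squares are rescaled values, bars are standard errors and filled points are called. Tnfrsf14 and Csf1 are called higher in CD93- cells on both scalings, while in CD93+ cells Cxcl9 and Cxcl10 are.

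Other secreted factors also differed. Of 46 further cytokine and chemokine genes, 9 were tested in CD93- cells, and 4 were called higher and 0 lower in DKO by limma (0 lower at an unadjusted p under 0.05), where 18.7% and 2.79% of all genes were. After rescaling 3 were called higher and 1 lower, Il16, where 17.1% and 23.8% of all genes were. Csf1, the growth factor of macrophages, had 7.71, 5.91 and 6.70 FPKM in DKO CD93- libraries, against 0.973, 1.06 and 1.23 FPKM in CTL CD93- libraries, a log2 change of 1.89 (adjusted p = 2.99e-06). Mif, macrophage migration inhibitory factor, had a change of 1.10, Xcl1, a chemokine that attracts cross-presenting dendritic cells, 0.91, and Ebi3, a subunit of IL-27 and IL-35, 0.56. The Xcl1 call was lost without a filter (adjusted p = 0.0612) and with sample weights (0.0534). On rescaled values it was lost without DKO replicate 1, 2 or 3 (0.0501 to 0.0910). The Ebi3 call was lost after rescaling (0.35, adjusted p = 0.127) and without DKO replicate 2 or 3 (adjusted p = 0.0629 and 0.0670). In CD93+ cells 15 were tested, where 1.67% of all genes were higher, and the 2 called higher were Cxcl9 and Cxcl10, chemokines induced by interferon gamma and bound by CXCR3. Cxcl10 had 2.16, 2.74 and 1.41 FPKM in DKO CD93+ libraries, against 0.446, 0.153 and 0.598 FPKM in CTL CD93+ libraries, and Cxcl9 had 1.81, 2.11 and 2.58 FPKM against 0.284, 0.753 and 0.233 FPKM. Neither pair of groups overlapped. The log2 changes were 1.14 (adjusted p = 0.000144) and 1.16 (adjusted p = 0.000103), and as with Ccl3 and Ccl4 both genes passed the filter only through their DKO libraries. The Cxcl10 call was lost without CTL replicate 2 (adjusted p = 0.0528), with sex as a covariate (0.343) and without a trend (0.158). The Cxcl9 call was lost without a trend (adjusted p = 0.138) and, on rescaled values, with sex (0.116) and without DKO replicate 2 or any of the 3 CTL libraries (0.0604 to 0.0951). After rescaling 5 of the 15 were called higher in CD93+ cells and 0 lower, where 11.4% and 9.34% of all genes were. Ebi3, Csf1 and Mif were then called as well, with changes of 1.13, 1.07 and 0.71.

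On the deposited scaling, calls among genes of the NF-kappaB pathway, which drives Tnf and many chemokines, were all higher in DKO, and after rescaling they lay in both directions. Of 15 feedback and pathway genes, all tested, 3 were called higher in DKO CD93- cells and 0 lower by limma (1 lower at an unadjusted p under 0.05, Rel), where 18.7% of all genes were higher and 2.79% lower. After rescaling 4 were higher and 6 lower, where 17.1% and 23.8% of all genes were. The counts of higher calls are near the shares over all genes. Bcl3, a nuclear IkappaB protein, had 64.9, 65.0 and 68.4 FPKM in DKO CD93- libraries, against 25.7, 38.9 and 36.9 FPKM in CTL CD93- libraries, a change of 0.97 (adjusted p = 0.000933). Nfkbiz, another nuclear IkappaB protein, rose by 0.80, and Traf1, an adaptor of TNF receptors, by 0.68. In CD93+ cells Traf1 was the 1 gene called on the deposited scaling, with 4.85, 6.18 and 1.92 FPKM in DKO libraries, against 1.13, 1.04 and 2.53 FPKM in CTL libraries, which overlapped (1.0, adjusted p = 0.0135), and the call was lost without DKO replicate 2, CTL replicate 1 or CTL replicate 2 (adjusted p 0.324 to 0.492), with sex as a covariate (a change of 0.49, adjusted p = 0.948) and without a trend (0.332). On rescaled values the Traf1 call was lost with sex (adjusted p = 0.168) and without DKO replicate 1 or 2 or CTL replicate 1 or 2 (0.0579 to 0.0771). After rescaling 3 of the 15 were higher in CD93+ cells, among them Bcl3 (0.59), and 4 lower, among them Tnfaip3, which encodes the inhibitor A20 (-0.50), where 11.4% and 9.34% of all genes were.

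The list of genes around TGF-beta activation and signalling holds both genes that release the cytokine or carry its signal and genes that restrain it, and called genes of both kinds were lower in DKO. Of 18 listed, 12 were tested in CD93- cells, with 0 higher and 1 lower on the deposited scaling (18.7% and 2.79% of all genes) and 0 higher and 8 lower after rescaling (17.1% and 23.8% of all genes). Of these 8, Ski, Smad7, Smurf1 and Smurf2 are known to restrain the signal, while Lrrc33, Furin, Itgav and Smad4 act in releasing the cytokine or carrying its signal. After rescaling, the list's median was -0.31 against -0.08 over all genes. Ski, a repressor of SMAD proteins, had 8.08, 9.19 and 8.15 FPKM in DKO CD93- libraries, against 11.1, 14.4 and 14.5 FPKM in CTL CD93- libraries, a change of -0.59 (adjusted p = 0.0103). Lrrc33, which holds latent TGF-beta on the cell surface, had 31.7, 31.1 and 29.9 rescaled FPKM in DKO and 44.9, 45.1 and 45.9 in CTL CD93- libraries (-0.54, adjusted p = 0.000179). In CD93+ cells 13 were tested, and 1 was lower on the deposited scaling, Thbs1, an activator of latent TGF-beta, with 0.213, 0.249 and 0.328 FPKM in DKO libraries, against 1.71, 1.09 and 1.48 FPKM in CTL libraries (-0.93, adjusted p = 0.00209). Thbs1 passed the filter only through the CTL libraries, and its adjusted p was 0.0730 without CTL replicate 1, 0.178 with sex as a covariate and 0.442 without a trend. On rescaled values the Thbs1 call was lost with sex (adjusted p = 0.146) and without DKO replicate 1 or 2 or CTL replicate 1 or 2 (0.0594 to 0.0857). After rescaling 4 were lower and 0 higher, where 9.34% and 11.4% of all genes were, Lrrc33 among them at -0.43 (adjusted p = 0.0129). No gene of this list had a change above 0 at an unadjusted p under 0.05 in limma, in either population and on either scaling.

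Several genes reported in IL-10-producing or otherwise regulatory B cells were higher in DKO cells. Of 19 listed, all were tested in CD93- cells, with 9 higher and 1 lower, where 18.7% and 2.79% of all genes were. After rescaling 9 were higher and 5 lower, where 17.1% and 23.8% of all genes were, so the lower calls are near the share over all genes. Nt5e and Prdm1 passed the filter only through the DKO libraries in both populations, and a difference was built into their being tested. Nt5e, which encodes the ectoenzyme CD73 that makes adenosine, had 7.15, 7.76 and 8.34 FPKM in DKO CD93- libraries, against 0.352, 0.308 and 0.307 FPKM in CTL CD93- libraries (2.72, adjusted p = 9.13e-08). Lag3, an inhibitory receptor found on IL-10-producing plasma cells, had 18.0, 15.4 and 20.8 FPKM in DKO and 3.15, 5.11 and 5.31 FPKM in CTL CD93- libraries (1.80, adjusted p = 2.10e-05). The transcription factors Maf and Batf rose by 1.46 and 1.44. The 1 gene lower was Pdcd1lg2, a ligand of PD-1 (-0.46, adjusted p = 0.0376). In CD93+ cells 18 were tested, 5 were higher and 0 lower by limma, with 0 lower at an unadjusted p under 0.05, where 1.67% and 1.54% of all genes were. After rescaling 11 were higher and 1 lower, Irf4, where 11.4% and 9.34% of all genes were. Lag3 had 18.8, 18.3 and 7.82 FPKM in DKO CD93+ libraries, against 1.10, 0.955 and 1.62 FPKM in CTL CD93+ libraries (2.76, adjusted p = 8.31e-16, and 0.000310 after rescaling). Tigit, another inhibitory receptor, had 22.7, 17.4 and 27.2 FPKM in DKO and 2.55, 6.39 and 2.04 FPKM in CTL CD93+ libraries (2.42), and Prdm1, which encodes the plasma cell regulator BLIMP-1, had a change of 1.47. The CD93+ call of Tigit was lost without a filter (adjusted p = 0.0861) and, on rescaled values, without CTL replicate 1 (0.0574) and with sex as a covariate (0.0533). Those of Lag3 and Prdm1 were also lost without a filter (adjusted p = 0.0521 and 0.166). Prdm1 and Lag3 are also expressed by plasma cells and T cells, whose marker sums are given above.

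The genes with profiles most like those of the members were found by the Euclidean distance between log2(FPKM + 1) values, centred on each table's mean, over all 12 libraries, among 9320 genes. For Ccl5 the nearest was Nkg7 at 0.595 log2 units, where the length of the Ccl5 profile itself was 2.5, then Faah at 0.909 and Glipr1 at 0.967. Ptms (0.590), Prf1, which encodes perforin (0.619), and Traf1 (0.629) were nearest to Ifng, whose own profile measured 1.70. Creld2 (0.982), Folr4 (0.990) and Xbp1, a transcription factor of secretory cells (1.06), were nearest to Ccl3, with a profile length of 3.38. Ccl4 had no close neighbour, since Spon1, the nearest, was at 1.69 for a profile length of 4.43. Those nearest to Lta, Ltb and Tgfb1 were Ccr2 (0.359), Arhgef3 (0.203) and Cd37 (0.174), for profile lengths of 1.29, 1.33 and 1.28. For Tnf it was Naaa at 0.421, close to the length of the Tnf profile, 0.654. Libraries of a table share their scaling, so genes of high and even expression lie near each other by this measure.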

How the data were processed

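Total RNA was purified with RNeasy and turned into strand-specific libraries with SureSelect chemistry, per the labels. The submitters' processing notes list the mouse build mm9, Cufflinks 2.1.1, TopHat2 2.0.8 and Bowtie2 2.1.0, and the authors deposited FPKM values per gene, in 1 table for CD93- and 1 for CD93+ cells. A further 6 value columns, which repeat the CD93+ libraries cell for cell, were not used, and 25 gene names in each table had taken the form of dates. Depth is unknown, since FPKM carries no counts, and counting intervals are not given.

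The tested genes had 1 FPKM or more in 3 or more libraries. They were fitted by limma 3.58.1 under R 4.3.3 (eBayes with a trend) on log2(FPKM + 1), two-sided, within each table, with Benjamini-Hochberg adjustment and a threshold of 0.05. In simulated data with 200 changed genes, the fit called 91% of the genes changed by 1 log2 unit and 97% of those changed by 2 over the 10960 CD93- genes, and 13% and 77% over the 11250 CD93+ genes. The changed genes were drawn from those with a mean log2(FPKM + 1) above 2. Noise was drawn independently for each gene, without a shift in library scale. These shares therefore do not apply to weak genes such as Ifng and Il10. Across tested genes, libraries of a group had correlations of 0.953 to 0.970 in CD93- and 0.934 to 0.976 in CD93+ cells. Alternatives changed the pseudocount (0.1 or 5), the filter (none, or 5 FPKM) and the fit, with upper quartile and quantile scaling, no trend, sample weights, a replicate block, sex as a covariate and leaving out each library. Rescaling combined with leaving out a library or with sex was added after seeing the data.

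The text names all 10 members, Tet2 and Tet3, up to 4 called genes of each list with the largest changes, markers and nearest profiles. Genes named beyond this rule, such as Tgfbr2, Lrrc33, Tnfaip3, Il16, Irf4, Gzma and Il10ra, were chosen after their values were seen. The members and gene lists were chosen with earlier results of these data known. A further receptor gene is not reported here. Promoter sequences and gene order are RefSeq's and GENCODE's for GRCm38, another build than the authors', so the tables carry no coordinates here.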

Additional observations from a re-analysis of the deposited data

How the results depend on the processing

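Depth is unknown and each group has 3 libraries, so weak genes such as Il10, Il6 and Ifng are the least certain. The 2351 genes called in CD93- cells became 4478 after upper quartile rescaling and 4198 after quantile normalization, and 1430 to 3253 when 1 library was left out (lowest without DKO replicate 3). Of the calls, 87.0% were higher in DKO on the deposited scaling and 41.7% after rescaling. The 2 members called higher there became 1 without a filter and 1 with a filter of 5 FPKM, and 2 to 4 when 1 library was left out (4 without CTL replicate 2). The 1 called lower became 0 without a filter, 4 after rescaling and 3 after quantile normalization, and 0 to 2 when 1 library was left out (0 without DKO replicate 3, 2 without CTL replicate 1). Rescaled values with 1 library left out gave 3340 to 4053 genes (3753 without DKO replicate 1, 4053, 3765 and 3738 without CTL replicates 1, 2 and 3), 1 to 3 members higher and 3 to 4 lower.

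In CD93+ cells the 361 genes called became 16 without a filter, 168 with a filter of 5 FPKM, 2331 after rescaling, 2230 after quantile normalization, 188 without a trend, 783 with sample weights, 127 with sex as a covariate and 570 with sex on rescaled values. Leaving out 1 library gave 163 to 675 genes (675 without DKO replicate 3, 163 without CTL replicate 1, 189 without CTL replicate 2), or 839 to 2101 on rescaled values (1506, 1149 and 1628 without DKO replicates 1, 2 and 3, and 952, 839 and 2101 without CTL replicates 1, 2 and 3). The 5 members called higher became 0 without a filter, 1 with a filter of 5 FPKM, 3 without a trend, 3 with sex and 3 with sex on rescaled values, and 3 to 5 when 1 library was left out on either scaling (3 without DKO replicate 2, CTL replicate 1 or CTL replicate 2 on the deposited scaling). None was lower on the deposited scaling with 1 library left out, against 1 after rescaling, after quantile normalization, with sex on rescaled values and in every rescaled fit without 1 library. A filter of 5 FPKM leaves most of these members untested. The cause of the other shifts was not tested. Ccl4 kept its call in CD93- cells under all 21 alternatives. In CD93+ cells Ccl3 and Ccl4 lost theirs without a filter (adjusted p = 0.0844 and 0.0521) and were not tested with a filter of 5 FPKM. The fits in which they kept it all used the filter that both genes passed only through the DKO libraries. A difference was built into their being tested there, so those fits do not check the calls apart from the filter.

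Changes that turned sign were all small after the turn, though not all were small in the main fit. In CD93- cells Tnf lay between -0.17 and 0.022 when 1 library was left out, with 0.022 without DKO replicate 1, 0.0066 without CTL replicate 2 and 0.014 without CTL replicate 3, Ltb lay between -0.19 and 0.037, the highest without CTL replicate 2, and Tet2 on rescaled values was -0.044 without DKO replicate 1 and -0.0095 without CTL replicate 2. In CD93+ cells sample weights gave 0.099 for Lta and 0.079 for Tet2, against -0.49 and -0.29 in the main fit. Rescaled values gave 0.020 for Tet2 without DKO replicate 2 and 0.011 with sex.

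Same-numbered libraries did not deviate together (correlations 0.0237, -0.113 and -0.0858 in CD93- and 0.166, -0.113 and -0.139 in CD93+ cells), and the main fits did not pair the samples. The correlations also carry the scale of each library, so they cannot tell whether same-numbered libraries share an origin. With the replicate number as a block, 2874 genes and 4 members higher and 1 lower were called in CD93- cells, the added members being Ccl5 (adjusted p = 0.00188) and Ifng (0.0253), and 237 genes and 4 members higher in CD93+ cells, where Ccl5 was not called (adjusted p = 0.120). Sex as a covariate was not run in CD93- cells, whose libraries were all alike in it.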
